A study of Mus musculus with 4 samples.

Results

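The guide arms of the miR-17, miR-18 and miR-19 seed families were followed in small RNA libraries of mouse brain cortex. A guide arm is the strand of a miRNA hairpin that is usually kept by the silencing complex, and a seed is the stretch of bases 2 to 8 that pairs with target mRNAs. The members were the guide arms of 3 related gene clusters, picked by name and not by level, and 9 of the 942 mature miRNAs of the table belong to them: miR-17-5p, miR-20a-5p, miR-20b-5p, miR-93-5p, miR-106a-5p and miR-106b-5p with the miR-17 seed, miR-18a-5p with the miR-18 seed, and miR-19a-3p and miR-19b-3p with the miR-19 seed. The cortex came from 4 mice of strain B6C3 aged 9 months, 2 wild type (WT1 and WT2) and 2 with the genotype APPswe/PS1deltaE9 (AD mice, APP3 and APP4). AD mice carry a chimeric mouse/human amyloid precursor protein with the Swedish mutation and a human presenilin 1 that lacks exon 9, both expressed in neurons of the central nervous system. All mice, wild type included, were anesthetized with pentobarbital before dissection. By the study's methods the mice were 2 sibling pairs, WT1 with APP4 (pair 1) and WT2 with APP3 (pair 2), which the sample labels do not state.

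These families are the products of gene duplication. The miR-17/92 cluster on chromosome 14 is read from the noncoding host gene Mir17hg, the miR-106b/25 cluster lies within Mcm7, which encodes a subunit of the replicative helicase, and a further cluster lies on the X chromosome. MYC and E2F factors switch on the miR-17/92 cluster in dividing cells, and its miRNAs restrain the cell death gene Bcl2l11 and the cell cycle inhibitor Cdkn1a. In the brain the cluster is best known for the expansion of neural progenitors, and miR-17, miR-20a and miR-106 family members were shown elsewhere to bind the APP mRNA.

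The mature sequences are shown because members of a family share the seed and differ in only a few of the remaining bases. They were taken from RefSeq on GRCm38.p6, written 5′ to 3′ with bases 2 to 8 in capitals, and all 9 members were matched by name. In the miR-17 seed family, the 6 members share AAAGUGC at bases 2 to 8.
miR-17-5p: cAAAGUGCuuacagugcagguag
miR-20a-5p: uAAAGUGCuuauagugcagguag
miR-20b-5p: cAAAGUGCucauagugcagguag
miR-93-5p: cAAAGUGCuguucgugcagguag
miR-106a-5p: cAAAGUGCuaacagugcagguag
miR-106b-5p: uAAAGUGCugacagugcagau
The miR-18 seed, AAGGUGC, differs from it by 1 base, and both miR-19 members share GUGCAAA.
miR-18a-5p: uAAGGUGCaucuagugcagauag
miR-19a-3p: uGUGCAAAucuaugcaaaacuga
miR-19b-3p: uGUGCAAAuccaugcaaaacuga
Substitutions are counted from 1 at the 5′ end, with the base of the miRNA named earlier first. From miR-17-5p to miR-106a-5p the only change is U10A, and from miR-19a-3p to miR-19b-3p it is U11C. From miR-17-5p to miR-20b-5p the changes are U10C and C12U, and from miR-20a-5p to miR-20b-5p they are U1C and U10C. From miR-17-5p to miR-20a-5p they are C1U and C12U. The study's methods give up to 2 mismatches for the counting but also state that none was accepted against miRBase. If mismatches were accepted, reads could have been exchanged between these pairs, and the values of the rarer partners miR-106a-5p, miR-20b-5p and miR-19a-3p, and the split between miR-17-5p and miR-20a-5p, are uncertain to that extent. miR-93-5p differs from every other member of its seed family by at least 3 bases. Of the 942 mature miRNAs, 754 had a sequence by name, and 0 of them outside the members had 1 of the 3 seeds.

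On GRCm38, the hairpins of the miR-17/92 cluster (Mir17, Mir18, Mir19a, Mir20a, Mir19b-1 and Mir92-1) lie on the plus strand at chr14:115043671-115044506, in an exon of Mir17hg in GENCODE vM21. Those of the miR-106b/25 cluster (Mir106b, Mir93 and Mir25) lie on the minus strand at chr5:138165321-138165818. Mir106b is intronic in both Mcm7 transcripts that span it, and Mir93 and Mir25 are intronic in 2 Mcm7 transcripts and overlap an exon of 1 other. Those of the X chromosome cluster (Mir106a, Mir18b, Mir20b, Mir19b-2, Mir92-2 and Mir363) lie on the minus strand at chrX:52741693-52742567, where GENCODE vM21 lists no host transcript. miR-19b-3p comes from both Mir19b-1 and Mir19b-2, so its reads cannot be assigned to a chromosome.

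The libraries held between 19048747 and 26085776 miRNA reads. The members took between 8805 and 10589 of them, or 0.0399% to 0.0488% of a library, and levels are given as reads per 1000000 miRNA reads (RPM), listed for WT1 and WT2 and then for APP3 and APP4. Mature lengths were 21 to 23 bases, so no length scale was needed. Neuronal content was checked with neuronal miRNAs, of which all 5 searched (miR-124-3p, miR-9-5p, miR-9-3p, miR-128-3p and miR-129-5p) were found. Their summed level was 70421 to 78942 RPM. They were not chosen to tell cortex from other brain regions, so the cortex label itself was not tested. APP4 stood apart outside the members, by 8 miRNAs of the miR-200 and miR-183 groups that were listed here as epithelial. They summed to 5862 RPM in APP4 and to 576 to 1024 RPM in the other 3 libraries. Most of the sum was miR-182-5p of the miR-183 group, with 3833 RPM in APP4 and 805, 407 and 605 in WT1, WT2 and APP3. In the miR-200 group, miR-429-3p was highest in APP4, with 450 RPM. In whole cortex, fewer cells of a type and less RNA per cell cannot be told apart.

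miR-93-5p, a product of the Mcm7 locus, dominated the set. The WT mice had 336 and 333 RPM and the AD mice 347 and 398, which placed it at rank 132 of the 942 miRNAs by mean level. Of the reads with the miR-17 seed it supplied 87.4% (95% Wilson interval 86.7 to 88.0) and 85.9% (85.1 to 86.6) in the WT mice and 86.1% (85.3 to 86.8) and 85.6% (84.9 to 86.3) in the AD mice. By reads, the miR-17 seed of these cortices was thus carried mostly by the miR-106b/25 cluster rather than by the cluster that gave the family its name. Reads were not calibrated to molecules of each miRNA. miR-106b-5p, from the neighbouring hairpin, had 22.2 and 27.9 RPM in the WT mice and 26.6 and 34.3 in the AD mice, 11.6 to 15.2 times fewer reads than miR-93-5p.

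The members of the miR-17/92 cluster lay lower. miR-17-5p had 15.3 and 15.8 RPM in the WT mice and 18.5 and 18.3 in the AD mice, and miR-20a-5p, its close relative in the same transcript, had 10.8 and 10.9 against 10.6 and 14.1 RPM. The AD mice did not overlap the WT mice for miR-17-5p, while for miR-20a-5p only APP4 lay apart. miR-19b-3p, the main carrier of the miR-19 seed, had 20.2 RPM in WT1 and 20.8 in APP4 but 9.92 in WT2 and 9.45 in APP3, so the libraries of pair 1 lay together above those of pair 2. It made up 94.8% to 97.8% of the miR-19 seed reads.

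The remaining 4 members were rare, with at most 21 reads in a library, where a level of 3 reads corresponds to between 0.115 and 0.157 RPM. miR-18a-5p had 8 and 10 reads in the WT mice and 21 and 20 in the AD mice, or 0.307 and 0.453 against 0.987 and 1.05 RPM. miR-19a-3p, which shares its seed with the far more abundant miR-19b-3p, had 12 and 10 against 11 and 17 reads. Both products of the X chromosome alone were rarer still, with 4, 4, 8 and 3 reads of miR-20b-5p and 0, 0, 3 and 1 of miR-106a-5p, where 0 reads allow up to 0.115 RPM in WT1 and 0.136 in WT2. No fold is given for miR-106a-5p, since every library was at or under 3 reads. By mean level the order was miR-93-5p, miR-106b-5p, miR-17-5p, miR-19b-3p, miR-20a-5p, miR-18a-5p, miR-19a-3p, miR-20b-5p and miR-106a-5p. Neighbours in this order had separate ranges over the 4 libraries except miR-17-5p and miR-19b-3p, miR-19b-3p and miR-20a-5p, and miR-18a-5p and miR-19a-3p.

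**Figure D1:**
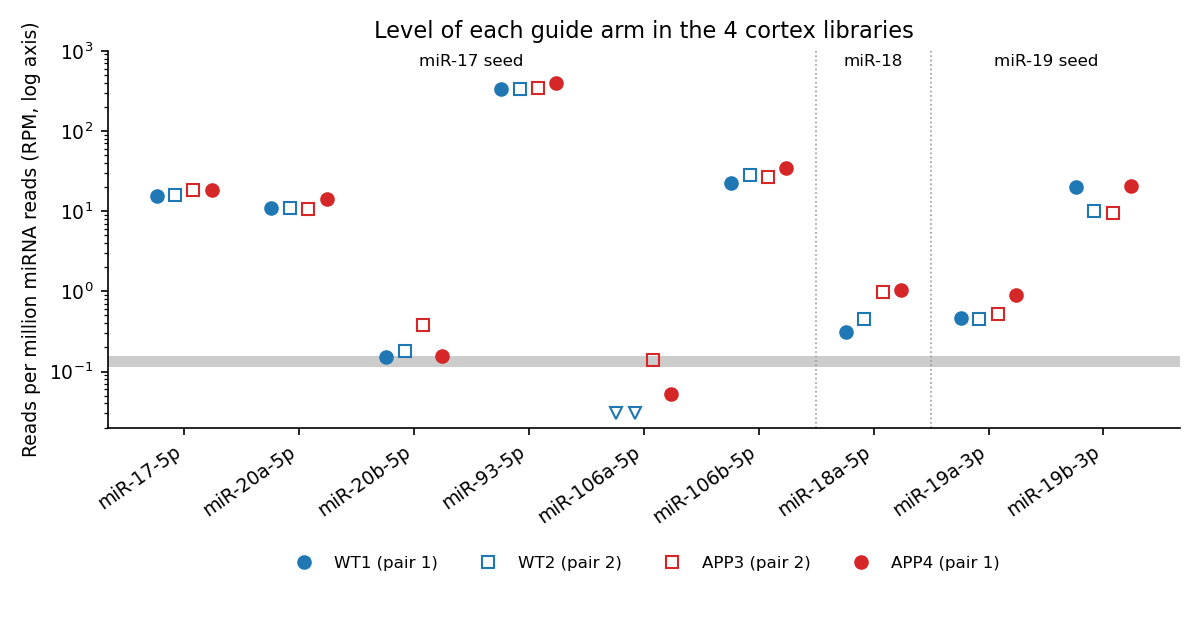
Level of the 9 guide arms in each library, in RPM on a log axis. Circles are pair 1 and squares pair 2, blue is WT and red AD, triangles at the foot stand for 0 reads, and the grey band is the level of 3 reads (0.115 to 0.157 RPM). miR-93-5p lies above 300 RPM in each library, and the points of miR-19b-3p separate by pair.

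miRNAs cut from a common transcript did not have a common level in reads. In the miR-17/92 cluster, miR-92a-3p, which has the miR-25 seed and another hairpin on the X chromosome, had 51.0 to 64.8 times the reads of miR-17-5p and 966 to 3162 times those of miR-18a-5p. The ratio of miR-17-5p to miR-20a-5p stayed between 1.30 and 1.75. In the miR-106b/25 cluster, miR-25-3p had 1.44 to 2.11 times the reads of miR-93-5p, with 654 and 552 RPM in the WT mice and 733 and 574 in the AD mice. miR-363-3p, the last hairpin of the X cluster and a product of that cluster only, had 11, 11, 18 and 16 reads.

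**Figure D2:**
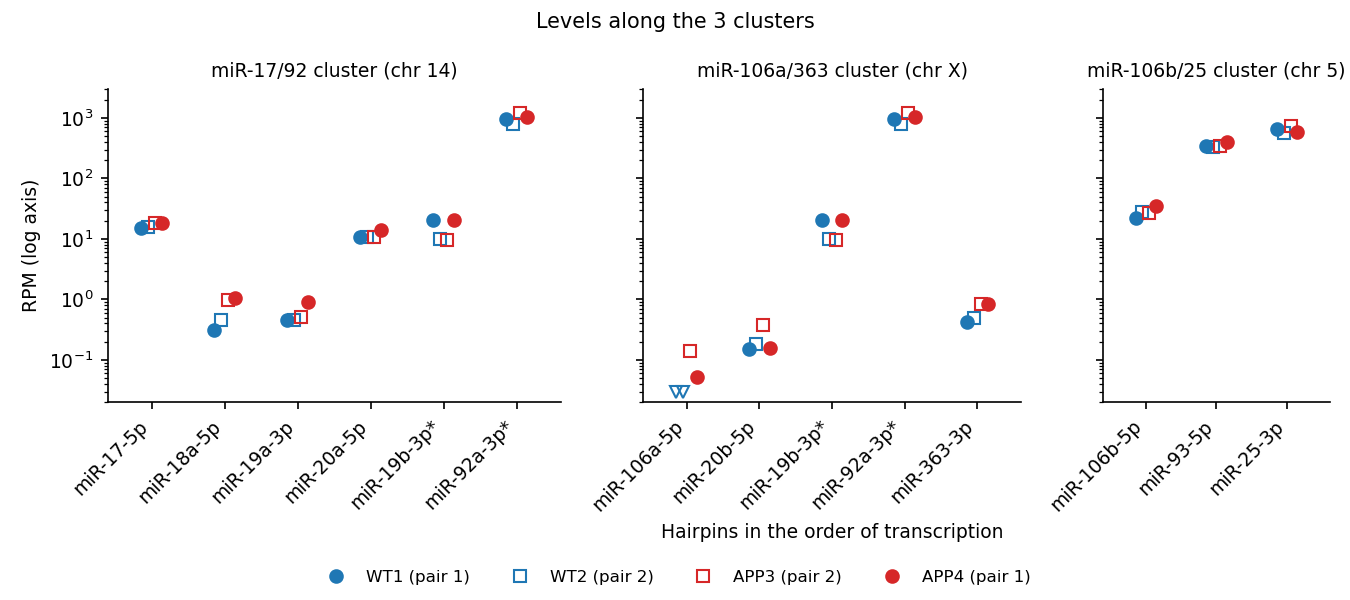
Level (RPM, log axis) of the guide arms along each cluster, with hairpins in the order of transcription. Circles are pair 1 and squares pair 2, blue is WT and red AD, triangles stand for 0 reads, and asterisks mark miRNAs made from hairpins of 2 clusters and so drawn in both. Levels within the miR-17/92 cluster range from 0.307 RPM for miR-18a-5p in WT1 to 1198 RPM for miR-92a-3p in APP3.

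For some hairpins, the arm listed as guide did not hold most of the reads. The Mir93, Mir106b and Mir18 hairpins are shown with both mature arms in capitals.
Mir93: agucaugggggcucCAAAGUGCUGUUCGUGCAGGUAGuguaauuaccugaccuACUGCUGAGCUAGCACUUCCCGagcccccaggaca
Mir106b: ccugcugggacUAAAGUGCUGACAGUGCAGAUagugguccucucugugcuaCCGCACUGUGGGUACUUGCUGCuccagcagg
Mir18: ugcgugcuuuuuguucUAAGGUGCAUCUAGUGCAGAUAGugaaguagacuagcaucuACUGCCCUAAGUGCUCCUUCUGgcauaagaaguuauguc
For Mir93 the 5p arm held 98.4% to 98.9% of the reads of both arms. For Mir106b, the neighbouring hairpin with the same seed on its 5p arm, miR-106b-5p held 36.4% (95% Wilson interval 34.1 to 38.8) and 44.1% (41.5 to 46.7) in the WT mice and 38.9% (36.4 to 41.4) and 44.6% (42.0 to 47.1) in the AD mice. Each of these intervals lies below 50%, and miR-106b-3p, which has another seed, had 38.8 and 35.5 RPM in the WT mice and 41.8 and 42.6 in the AD mice. The share differed by more than counting error between mice of each genotype, and the genotypes overlapped. For Mir18 the 5p arm held 16.7% (8.70 to 29.6) and 27.8% (15.8 to 44.0) in the WT mice and 33.9% (23.3 to 46.3) and 43.5% (30.2 to 57.8) in the AD mice. The intervals of neighbouring shares overlap, those of WT1 and APP4 do not, and that of APP4 includes 50%. Both AD shares lay above both WT shares, with at most 62 reads of both arms in a library, and this order was not tested. The guide arm prevailed for Mir17, with 86.0% to 91.4%, and for Mir20a, with 91.6% to 96.8%. For Mir19a it held 84.6% to 100%, of at most 17 reads.

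**Figure D3:**
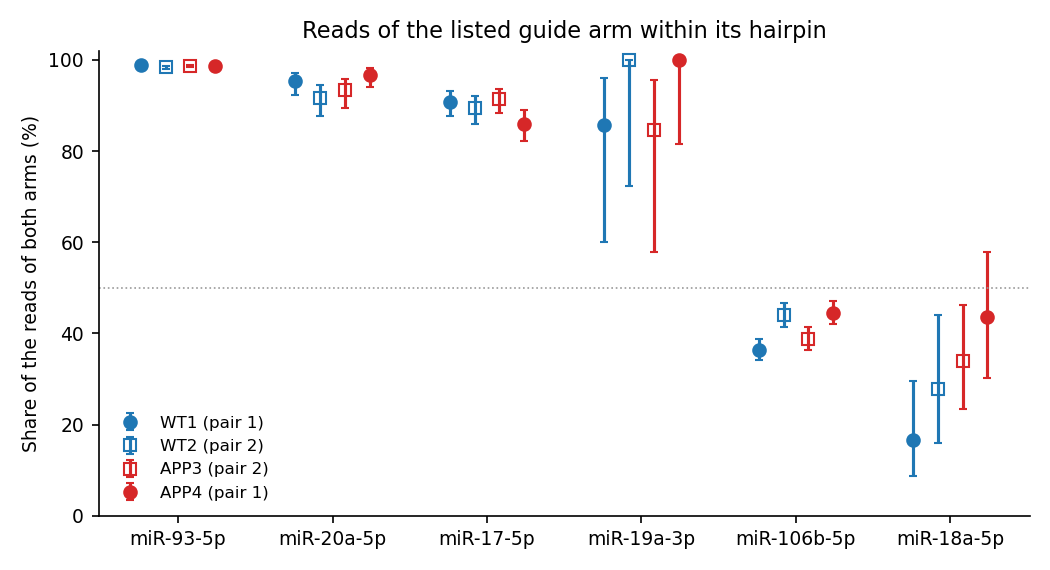
Share of the reads of both arms that fell on the listed guide arm, in percent, for 6 hairpins and each library, with 95% Wilson intervals. Circles are pair 1 and squares pair 2, blue is WT and red AD, and the dotted line is 50%. The points of miR-106b-5p (36.4% to 44.6%) and miR-18a-5p (16.7% to 43.5%) lie below the line, and those of the other hairpins at 84.6% or above.

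The genotypes were compared over the 4 mice, and no member passed the test. With edgeR's quasi-likelihood test on TMM-scaled counts and Benjamini-Hochberg adjustment, 0 of 623 miRNAs had an adjusted p under 0.05 (0% called), 36 had an unadjusted p under 0.05 (5.78%), and DESeq2's Wald test gave 0 and 28 of 942. With the sibling pairs as a block edgeR called 2 miRNAs (0.321%), neither of them a member. miR-20b-5p and miR-106a-5p had too few reads to be tested. miR-18a-5p and miR-19a-3p entered the test only through the AD libraries, since neither WT library reached the required 0.461 RPM. The other 5 members passed in both genotypes. For 2 mice against 2, an exact permutation test of a single value, two-sided, cannot go below 2 of the 6 possible orders and so cannot reach 0.05.

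In the miR-17 seed family, the estimates lay near 0. edgeR's log2 fold change of AD over WT was 0.01 for miR-93-5p (SE 0.19, 95% interval -0.43 to 0.46, adjusted p = 0.995). It was 0.11 for miR-17-5p (SE 0.20, interval -0.35 to 0.57, adjusted p = 0.972). For miR-106b-5p it was 0.14 (SE 0.22, interval -0.37 to 0.65) and for miR-20a-5p 0.04 (SE 0.20, interval -0.43 to 0.51). The intervals of all 4 span 0. Summed over the 6 members, the miR-17 seed had 387 ± 2.20 RPM in wild type and 434 ± 44.0 in AD mice (mean ± SD, n = 2), where APP3 had 403 and APP4 465.

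On the RPM scale both AD mice lay above both WT mice for miR-93-5p and miR-17-5p, which passed the filter in both genotypes, and below for none of the members tested. The same order in miR-18a-5p and miR-19a-3p is a description only, since these entered through the AD libraries alone. Over all 623 miRNAs this order was found in 27% on the RPM scale, and the reverse order in 8.99%. The order depended on the scale: with TMM library sizes, miR-93-5p had 366 and 337 RPM in the WT mice against 346 and 363.2 in the AD mice, which overlap, while miR-17-5p had 16.7 and 15.9 against 18.4 and 16.7, with APP4 and WT1 nearly level. Over all miRNAs the order was then found in 14.9% and its reverse in 19.1%. Without TMM, edgeR's log2 fold change of miR-17-5p was 0.24 and that of miR-93-5p 0.15, against a median of 0.11 over all miRNAs tested.

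miR-18a-5p, the carrier of the miR-18 seed, had a log2 fold change of 1.29 (SE 0.43, interval 0.29 to 2.29), and did not pass. It entered the test only through the AD libraries, where it is high, so these values are descriptions and do not support a difference. Its adjusted p by edgeR was 0.768 and its unadjusted p 0.0185, with 21 and 20 reads in the AD mice against 8 and 10 in the WT mice. Both AD mice lay above both WT mice. The adjusted p lay between 0.444 and 0.997 under the other settings, and the log2 fold change between 1.07 and 1.56 with each mouse left out in turn. miR-18a-3p, the other arm of the hairpin, had 40 and 26 reads in the WT mice and 41 and 26 in the AD mice, which overlap, with a log2 fold change of 0.15 (SE 0.36). Of the other members of the transcript, miR-19a-3p had a log2 fold change of 0.47 (SE 0.47, adjusted p = 0.958 by edgeR), with 17 reads in APP4 and 10 to 12 in the other 3 mice.

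Within the sibling pairs, reads were tested with Fisher's exact test (two-sided) at a false discovery rate (FDR) under 0.05 and at least 1.5-fold. These limits follow the study's methods but were applied here to the deposited counts, and the test compares 2 libraries and not the genotypes. In pair 1 this called 2 of the 9 members, both higher in APP4, where it called 11.6% of all miRNAs with a read and 9.68% as higher. miR-106b-5p had 22.2 RPM in WT1 and 34.3 in APP4, a log2 difference of 0.63 (SE 0.08, counting error only), and miR-18a-5p 8 and 20 reads, 1.72 (SE 0.59). By FDR alone 5 of the 9 passed, beside 40.3% of all miRNAs. In pair 2 it called 0 of the 9, where it called 6.81% of all miRNAs. By FDR alone 1 of the 9 passed, miR-93-5p, beside 36% of all miRNAs. There miR-106b-5p had 27.9 RPM in WT2 and 26.6 in APP3, a log2 difference of -0.07 (SE 0.08), and miR-18a-5p 10 and 21 reads, 1.09 (SE 0.54). By TMM library sizes only miR-18a-5p was called in pair 1, since TMM moved each log2 difference of that pair by -0.25 and those of pair 2 by -0.02. With values scaled to 1000000 reads before the test, 0 members were called in either pair, beside 32 miRNAs in pair 1 and 23 in pair 2.

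The median log2 difference of the 9 members was 0.38 in pair 1, beside 0.21 over all miRNAs with a read, and 0.19 in pair 2, beside 0.05. With TMM library sizes these medians were 0.13 beside -0.04 in pair 1 and 0.17 beside 0.04 in pair 2. The median of pair 2 was the value of miR-19a-3p, which had 10 reads in WT2 and 11 in APP3. All 9 were higher in APP4 than in WT1, where 66.3% of all miRNAs were, although miR-106a-5p counts among them with 1 read against 0. By TMM library sizes 6 of 9 were, where 47.2% of all miRNAs were. In pair 2, 6 of 9 were higher in APP3 than in WT2, where 55.2% of all miRNAs were. These comparisons have 1 mouse of each genotype. Between the AD mice, APP4 also exceeded APP3 for miR-106b-5p (log2 difference 0.37, SE 0.08), miR-20a-5p (0.42, SE 0.13) and miR-93-5p (0.20, SE 0.02). For miR-17-5p the difference was -0.01 (SE 0.11). Over all miRNAs with a read the median of this comparison was 0.12, and 58.5% were higher in APP4. TMM moved each log2 difference between the AD mice by -0.13. The members called in pair 1 were picked by their difference in that pair, so their differences within a genotype are given as values only. miR-106b-5p differed by 0.37 between the AD mice and by 0.33 (SE 0.08) between WT2 and WT1. For miR-18a-5p these values were 0.09 (SE 0.45) and 0.55 (SE 0.67). APP4 is also the library with 5862 RPM of the listed miR-200 and miR-183 groups, and the part of that in these values was not tested.

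**Figure D4:**
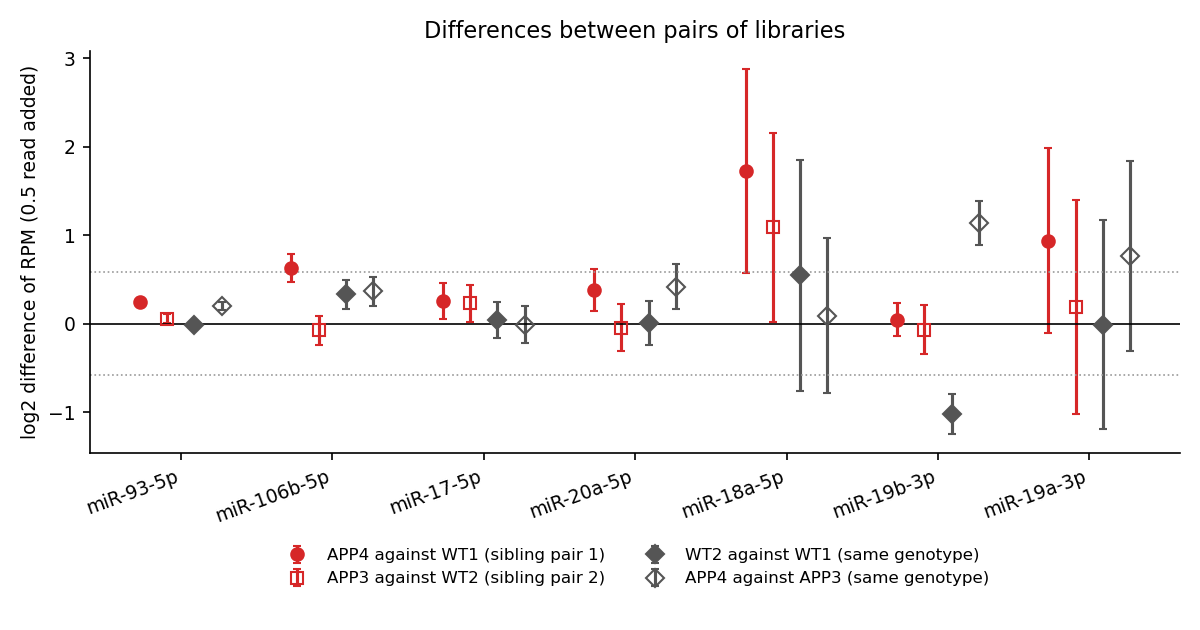
Log2 difference of RPM between libraries for the 7 members with at least 8 reads in each library (0.5 read added; the second-named library is the base). Red marks the sibling pairs and grey the mice of one genotype, bars are 95% counting intervals, and dotted lines are 1.5-fold. The grey points of miR-19b-3p (-1.02 and 1.14) lie farther from 0 than its red ones (0.05 and -0.07).

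For miR-19b-3p the siblings lay close together and the mice of a genotype apart. The log2 difference was 0.05 (SE 0.10) in pair 1 and -0.07 (SE 0.14) in pair 2, neither called. It was -1.02 (SE 0.12) between WT2 and WT1 and 1.14 (SE 0.12) between APP4 and APP3. By the same Fisher rule it was the only member called in either of these comparisons, where 10.1% of all miRNAs were called between the WT mice (2.5% with WT2 the lower) and 8.05% between the AD mice (5.07% with APP4 the higher). The genotype means were 15.1 ± 7.27 RPM in the WT mice and 15.1 ± 8.05 in the AD mice (SD, n = 2). edgeR's genotype estimate of -0.17 (SE 0.44, adjusted p = 0.977) therefore followed the mice included, with 0.50 without WT1, -0.59 without WT2, 0.24 without APP3 and -0.78 without APP4, and with 0.0049 when TMM was left out.

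For 379 miRNAs the mean level was 10 RPM or more. Both libraries of pair 1 lay above both of pair 2 for 72 of them (19%). miR-19b-3p, singled out after its values were seen, was the only 1 of the 379 (0.264%) for which the lower library of pair 1 exceeded the higher of pair 2 by at least 1.5-fold. The opposite direction was not counted, and a miRNA that also differed between the genotypes could miss this limit. Within each genotype, other miRNAs were also higher in pair 1. miR-182-5p had a log2 difference of 0.985 for WT1 minus WT2 and 2.66 for APP4 minus APP3. These values were 0.634 and 2.55 for miR-183-5p and 0.668 and 1.14 for miR-7a-5p. Some miRNAs were lower in pair 1 within both genotypes by a similar amount. For miR-409-5p the log2 difference was -1.57 for WT1 minus WT2 and -1.40 for APP4 minus APP3, and for miR-501-3p -1.32 and -1.08. A test of the sibling pair in edgeR was added after the values were seen. It gave miR-19b-3p a log2 difference of 1.07 (SE 0.21) between pair 1 and pair 2, at rank 6 of 623 by unadjusted p (0.0013). The adjusted p was 0.135, so miR-19b-3p did not pass. In that test 0 of 623 miRNAs passed (0%), and 48 had an unadjusted p under 0.05. Other members differed less between the pairs, from -0.19 for miR-18a-5p to 0.41 for miR-19a-3p. miR-19a-3p, with the same seed, had 12 and 17 reads in pair 1 and 10 and 11 in pair 2. The miRNA reads also made up a smaller part of the clean reads in pair 1 (83.4% in each library) than in pair 2 (88.7% in WT2 and 87.6% in APP3), and the part of this in the difference was not tested.

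**Figure D5:**
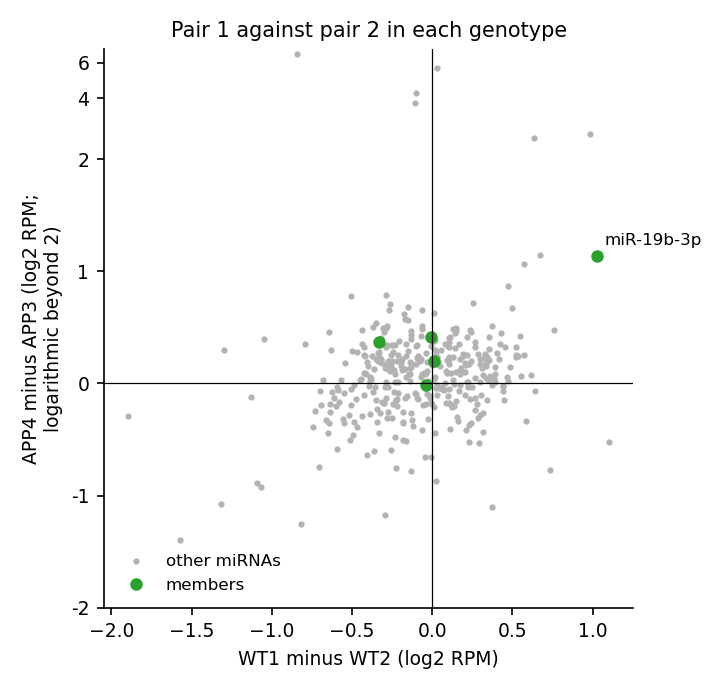
Log2 difference between the WT mice (horizontal, WT1 minus WT2) and between the AD mice (vertical, APP4 minus APP3; logarithmic beyond 2) for the 379 miRNAs at a mean level of 10 RPM or more. Each point is a miRNA, and the 5 members among them are green. miR-19b-3p lies at 1.02 and 1.14, away from the other 4 members near the centre. Other grey points also lie in the upper right, and some lie as far out in the lower left.

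Of the 19 other arms and cluster partners searched, 14 had a row, and 10 of these were tested with edgeR. None passed, with an adjusted p of 0.929 or more. miR-92a-3p had a log2 fold change of 0.18 (SE 0.22), with 970 and 804 RPM in the WT mice and 1198 and 1014 in the AD mice. miR-25-3p, with the same seed, had -0.02 (SE 0.24). On the RPM scale both AD mice lay above both WT mice for miR-92a-3p, miR-106b-3p, miR-363-3p and miR-25-5p, an order found in 27% of all miRNAs tested. The genotypes overlapped for the other partners. With TMM library sizes this order was found in 14.9% of all miRNAs tested, and the partners were not ordered on that scale. miR-363-3p, with 11, 11, 18 and 16 reads, had 0.74 (SE 0.42). It reached the required 0.461 RPM in 1 WT library and 2 AD libraries. The AD libraries, where it is high, thus carried it into the test, and its values are descriptions only. In pair 1 the Fisher rule called 3 partners, miR-17-3p (41 to 57 reads), miR-93-3p (94 to 106) and miR-25-5p (42 to 51), all higher in APP4, beside 11.6% of all miRNAs, and 0 of them by TMM library sizes. In pair 2 it called 0. Between mice of a genotype it called miR-93-3p higher in WT2 than in WT1 (log2 difference 0.60), and miR-17-3p (0.78) and miR-92a-1-5p (0.83) higher in APP4 than in APP3.

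The miRNAs with the most similar pattern over the 4 libraries were sought among 249 others with a mean of at least 50 RPM, as the Euclidean distance between log2 RPM centred on each miRNA's mean. For the miR-17 seed sum they were miR-370-3p (distance 0.065), miR-330-5p (0.071) and miR-30d-3p (0.072), with a median of 0.320 over all 249. For miR-18a-5p they were miR-331-3p (0.581), miR-434-3p (0.626) and miR-138-5p (0.661), with a median of 1.40. All 3 were higher in both AD mice than in both WT mice, as miR-18a-5p was, which follows from their choice by likeness to it. For the miR-19 seed sum they were let-7j (0.492), miR-219-2-3p (0.642) and miR-540-3p (0.647), with a median of 1.08. With 4 libraries these distances are descriptions only.

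The lists of miRNAs known from other cell types had these levels beside the members. The 6 miRNAs of white blood cells and microglia summed to 1588 and 1630 RPM in the WT mice and 1702 and 1805 in the AD mice, with 4 of 6 higher in both AD mice. On the RPM scale 27% of the 623 miRNAs tested were higher in both AD mice and 8.99% lower. With TMM library sizes these shares were 14.9% and 19.1%, but the markers were ordered on the RPM scale only. The count of 4 of 6 therefore cannot be set against the TMM shares. The 4 erythroid miRNAs summed to 4001 and 4642 in the WT mice against 4060 and 3223 in the AD mice. Almost all of that sum was miR-486-5p, which was lower in both AD mice, and the genotypes overlapped for miR-451a, miR-144-3p and miR-144-5p. The 2 endothelial miRNAs lay between 7322 and 9135 RPM, miR-219-5p and miR-338-3p of oligodendrocytes summed to between 1368 and 1742, and miR-143-3p of smooth muscle lay between 16628 and 24328, lower in both AD mice. The table names the remaining smooth muscle and oligodendrocyte markers miR-145a-5p, with 164 and 152 RPM in the WT mice against 112 and 150 in the AD mice, and miR-219-2-3p, with 424 and 315 against 353 and 482. None of the markers found was at 0 in every library. The part of these cell types in the members' levels was not tested.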

How the data were processed

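Small RNA of the cortex of 2 WT and 2 APPswe/PS1deltaE9 mice was sequenced, 1 library per mouse. The authors trimmed the reads, kept those of 18 to 35 nt, aligned them against miRBase with Bowtie and counted them in CLC Genomics Workbench. The methods give up to 2 mismatches, and also none for miRBase. They deposited counts without normalization for 942 mature miRNAs. A further set of columns deposited by the authors, named TPM, holds RPM relative to all clean reads, and served here only to recover those totals. The submitters' processing notes name CASAVA 1.8 and mm9, whereas the paper names GRCm38, and coordinates here are GRCm38.

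Counts were scaled to the miRNA reads of each library. The lowest detectable level was taken as 3 reads, and intervals and floors cover counting error only, since PCR copies are not independent molecules. Differences between miRNAs in how well adapters were ligated to them were not measured. Levels and shares of different miRNAs or arms therefore compare reads and not molecules. Every pair of libraries differed beyond sampling noise (chi-square over its degrees of freedom 439 or more). Genotypes were compared by the quasi-likelihood test of edgeR 4.0.16, run in R 4.3.3, after filterByExpr and TMM scaling, with Benjamini-Hochberg adjustment over 623 miRNAs (SE taken as the log2 fold change over the square root of F). Sibling pairs were compared by Fisher's exact test (scipy 1.17.1) over miRNAs with a read in either library, with 0.5 read added for log2 differences. DESeq2 1.42.0, other scalings, filters and limits, the sibling pairs as a block and each mouse left out were the alternatives. The pairs come from the paper. Deviations of siblings from their genotype means correlated with r = 0.235 across 252 miRNAs.

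Both tests were tested on simulated data with known changes. At the dispersion fitted to these data (0.0577), edgeR recovered 52 of 92 changes of 2-fold and 95 of 96 of 4-fold, with 4 false calls. Fisher's rule recovered 65 of 97 and 71 of 96, with 1 false call. The simulation for Fisher's rule held counting noise only, which the real libraries exceed, so its false calls do not carry over to them. The members, the lists of partners and cell type markers, and the rule for similar patterns were chosen with earlier results of these data known. Named were the 9 members, their other arms and cluster partners, the marker lists, and the 3 miRNAs most similar to each family. Listed names without a row were not analysed here, except 2 markers that the table names otherwise.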

Additional observations from a re-analysis of the deposited data

How the results depend on the processing

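No member passed edgeR's test under any alternative, and the sibling block, which is the replicate block of this design, changed no call of a member. Over all miRNAs, the block gave 2 calls, miR-409-5p and miR-100-5p, against 0 without it. With each mouse left out in turn there were 0 to 21 calls, with 0 members among them (21 without APP3, 5 without APP4, 3 without WT1 and 0 without WT2), and the lone mouse of a genotype was then assumed to vary like the others. The edgeR estimates of 3 members changed sign. miR-20a-5p ranged from -0.12 to 0.17 with a mouse left out, miR-93-5p from -0.033 to 0.066 and miR-19b-3p from -0.78 to 0.50, and miR-19b-3p was 0.0049 without TMM. The cause was not tested.

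The count of 2 members called in pair 1 became 1 with TMM library sizes, 1 with a limit of 2-fold, 0 with values scaled to 1000000 reads and 1 when at least 10 RPM was required. Fewer miRNAs or reads entered the last pair of settings by construction. In pair 2 it was 0 under each of them. The count over all miRNAs in pair 1, 104, became 50 with a limit of 2-fold, 32 with scaled values and 53 with at least 10 RPM, and in pair 2, 61 became 26, 23 and 30. In pair 1 the split was 87 higher and 17 lower, and with TMM 39 and 46. Clean reads as library sizes and 5 added reads moved no log2 difference of a member beyond its counting error. TMM moved 7 of 22 values, sums of families included, all in pair 1 (miR-93-5p from 0.24 to -0.0098). TMM shifts every value of a pair alike, by -0.25 in pair 1 and -0.02 in pair 2. The count of 7 therefore follows from the counting errors, and the other values are not shown to be stable. Depth limits miR-18a-5p, miR-19a-3p, miR-20b-5p and miR-106a-5p, which had at most 21 reads in a library.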
